A study of Mus musculus with 6 samples.

Results

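The STAT family comprises latent transcription factors that wait in the cytoplasm until a cytokine receptor is engaged. Its members were taken as the genes Stat2, Stat3, Stat4, Stat5a, Stat5b and Stat6, through every probe set that the platform annotation assigned to 1 of these symbols alone. That gave 6 probe sets, 1 for each of 6 genes, out of 35556 probe sets on the array and 19938 genes tested.

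The samples were whole livers of male mice of the inbred strain C57BL6, 10 weeks of age and all fasted for 16 h before injection. The IL-6 group (3 arrays) received 100 ng of interleukin-6 per mouse intraperitoneally, and the saline group (3 arrays) received saline, and livers were taken after 1 h. The starting material was total RNA, the label was biotin, and each array held 1 sample. Array values are on the log2 scale, 1 for each probe set, after the submitters' RMA processing. The labels leave unstated whether every sample is a separate mouse, so the p-values reflect sample-to-sample spread, which may be technical.

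Receptor-bound JAK kinases phosphorylate a STAT protein on a conserved tyrosine, after which STAT dimers enter the nucleus and bind DNA. In hepatocytes IL-6 binds its receptor together with gp130, and the STAT3 so activated drives the hepatic acute-phase response. Because activation is by phosphorylation, a transcript level says how much template for the protein there is, and these arrays did not measure phosphorylated STAT protein.

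The arrays had medians of 5.42 to 5.48 over all probe sets. Their second principal component over genes, holding 23.1% of the variance, placed IL-6 replicate 3 at -13.15 and saline replicate 2 at -11.6, apart from the other arrays (1.83 to 9.65). Values without those arrays are given where they bear on a STAT result. All 7 hepatocyte markers were measured, and their mean log2 value lay between 12.64 and 12.69 in IL-6 livers and between 12.60 and 12.66 in saline livers. Whole tissue was profiled, so fewer cells of a type and less RNA per cell cannot be told apart.

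One hour after IL-6, Stat3 was the STAT transcript that passed the test, at 1.44-fold its saline level. Stat2, Stat5b and Stat5a had differences of 1.32-fold, 1.20-fold and 1.17-fold that did not pass over all genes. Stat6 and Stat4 lay at 1.03-fold and 0.975-fold. In limma, with Benjamini-Hochberg adjustment over 19938 genes at a threshold of 0.05, 1 of the 6 members was higher and 0 were lower, where 0.386% of all genes were called higher and 0.0351% lower. At an unadjusted limma p under 0.05, 4 of 6 members passed, all higher, against 3.78% of all genes higher and 2.83% lower. The median log2 difference over the 6 members was 0.24, beside 0.00264 over all genes. Without IL-6 replicate 3 and saline replicate 2 together, Stat2, Stat5a and Stat5b no longer passed at an unadjusted p under 0.05. Their log2 differences were then 0.34, 0.20 and 0.16, with unadjusted limma p of 0.0820, 0.0738 and 0.124.

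Stat3 encodes the STAT protein that IL-6 activates, and it is known to be a target of its own product. Its log2 values were 9.18, 8.89 and 9.07 in IL-6 livers (replicates 1 to 3), against 8.48, 8.56 and 8.52 in saline livers. Every IL-6 array lay above every saline array, as held for 3 of the 6 members and 6.15% of all genes (all IL-6 arrays lay below in 0 members and 5.48% of genes), and the lowest IL-6 value was that of replicate 2. The means were 9.05 ± 0.15 in IL-6 livers and 8.52 ± 0.04 in saline livers (SD, n = 3 each). The log2 difference was 0.52 ± 0.09 (standard error), with a 95% interval of 0.32 to 0.72 (limma adjusted p = 0.04996). By limma p, Stat3 stood at rank 84 of 19938 genes, and 84 genes were called in all. The call was lost when any array other than IL-6 replicate 2 was left out (limma adjusted p of 0.140 to 0.220) and without the pair set apart on the second component (0.410), while the difference stayed between 0.45 and 0.60.

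**Figure D1:**
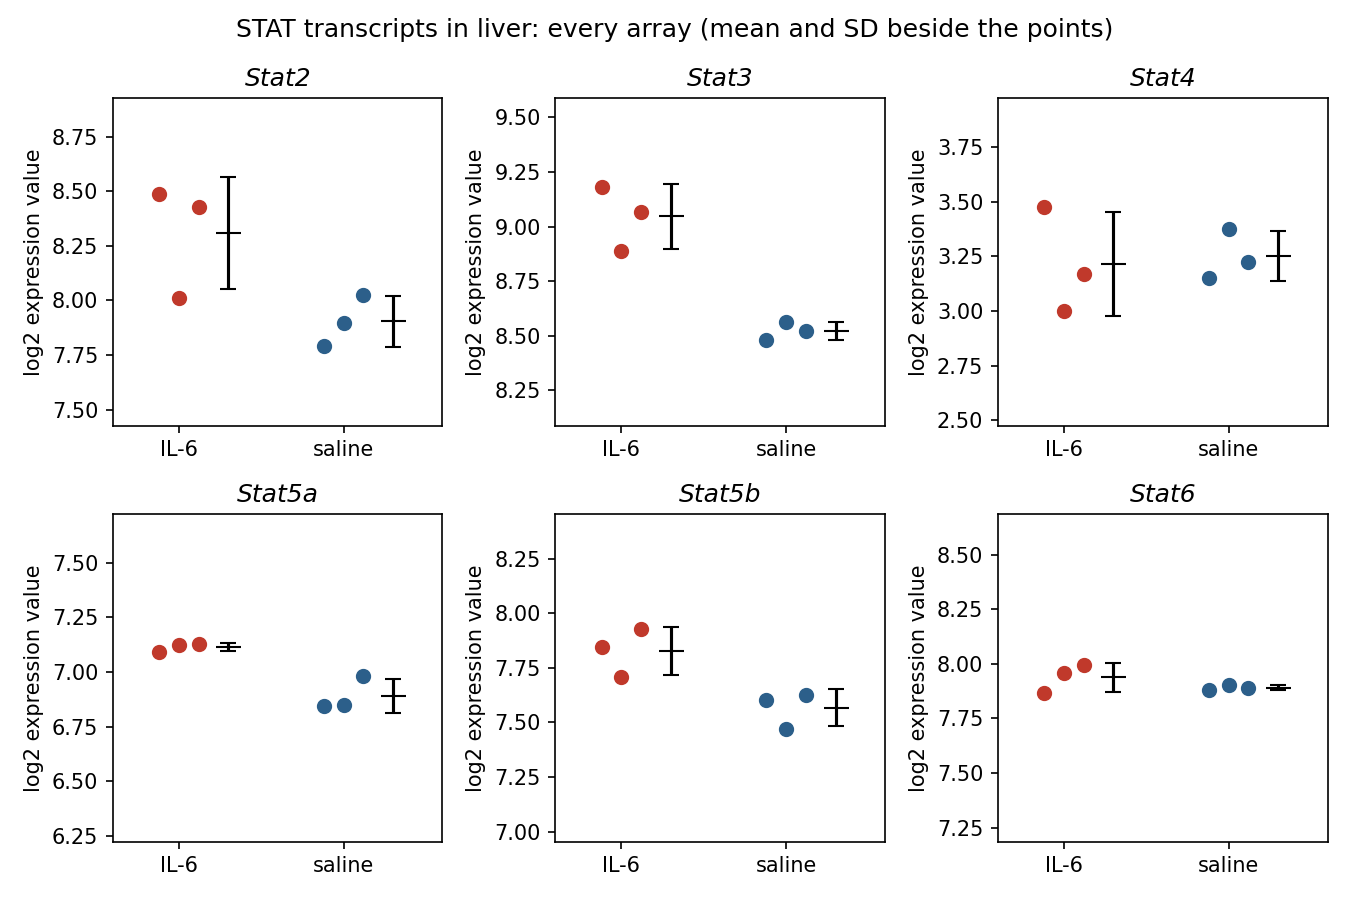
Log2 expression value (y axis, the same span of 1.5 in every panel) of the 6 STAT transcripts in each of 3 IL-6 and 3 saline arrays, drawn as points in replicate order, with the mean and SD beside them. The IL-6 points of Stat3, Stat5a and Stat5b all lie above the saline points, and those of Stat2, Stat4 and Stat6 overlap them.

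Stat2 encodes the partner that joins IRF9 in the interferon-stimulated complex, and it is best known for responses to type I interferon rather than to IL-6. Its log2 values were 8.49, 8.01 and 8.43 in IL-6 livers, against 7.79, 7.89 and 8.03 in saline livers. The groups overlapped by a narrow margin, since IL-6 replicate 2 lay just below saline replicate 3, while the other IL-6 arrays lay above all saline arrays. The log2 difference was 0.41 ± 0.13 with a 95% interval of 0.12 to 0.69 (limma adjusted p = 0.498). Leaving out 1 array at a time gave differences of 0.32 to 0.55 (limma adjusted p of 0.0957 to 0.791). The largest was that without IL-6 replicate 2, and the smallest that without IL-6 replicate 1.

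Promoter windows show what these genes carry near their starts. RefSeq windows on GRCm38.p6, from 250 bases before to 50 after each start, were found for all 6 members (9 windows), and both strands were searched for TTCNNNGAA, the usual STAT site, for the same ends set 4 bases apart, a spacing that STAT6 also binds, for TGACGTCA, the cAMP response element, and for GAAANNGAA, a core of the interferon response element. Among all 32851 promoter windows, 8.30% held TTCNNNGAA, 6.95% the wider spacing, 1.79% TGACGTCA and 8.56% GAAANNGAA. The windows of Stat2 and Stat3 are printed because these members had the largest differences, and that of Socs3, the STAT3 feedback gene described further on, for comparison. Capitals mark a match to any of the searched motifs.
Stat2 (chr10:128270248-128270547, plus strand): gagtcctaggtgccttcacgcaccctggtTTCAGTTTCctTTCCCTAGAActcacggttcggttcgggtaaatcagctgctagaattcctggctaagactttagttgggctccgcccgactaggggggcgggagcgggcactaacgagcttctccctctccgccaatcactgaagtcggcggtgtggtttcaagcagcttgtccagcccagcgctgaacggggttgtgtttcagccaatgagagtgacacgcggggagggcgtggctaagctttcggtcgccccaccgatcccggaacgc
Stat3 (chr11:100939491-100939790, minus strand): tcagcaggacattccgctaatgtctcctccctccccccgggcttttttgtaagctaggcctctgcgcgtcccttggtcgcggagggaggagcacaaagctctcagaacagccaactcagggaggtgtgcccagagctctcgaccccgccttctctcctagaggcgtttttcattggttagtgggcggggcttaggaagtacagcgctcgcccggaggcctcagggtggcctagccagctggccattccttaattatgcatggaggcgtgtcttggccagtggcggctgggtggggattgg
Socs3 (chr11:117969317-117969616, minus strand): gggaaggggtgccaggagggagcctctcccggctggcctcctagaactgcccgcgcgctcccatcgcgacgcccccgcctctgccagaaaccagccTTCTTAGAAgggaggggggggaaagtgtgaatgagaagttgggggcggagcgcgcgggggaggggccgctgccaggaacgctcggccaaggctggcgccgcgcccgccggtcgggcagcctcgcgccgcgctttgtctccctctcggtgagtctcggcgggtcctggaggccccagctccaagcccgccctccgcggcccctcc

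The Stat2 window held 1 match to the interferon response core (read on the opposite strand) and, next to it without overlap, 1 match to the wider STAT spacing. The Stat3 window held 0 matches to these 4 motifs, which says only that these letters are not in this window. The Socs3 window held 1 match to TTCNNNGAA. Of the other members, 1 of 2 windows of Stat4 held a match to GAAANNGAA, and no other window of Stat4, Stat5a, Stat5b or Stat6 held any of the 4 motifs. A match is a description of letters and not a measured binding site.

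Stat5a and Stat5b encode closely related proteins that carry growth hormone and prolactin signals, STAT5B being the main growth hormone effector in mouse liver. Stat5a had log2 values of 7.09, 7.12 and 7.13 in IL-6 livers, against 6.84, 6.85 and 6.98 in saline livers. Its groups did not overlap, and its IL-6 arrays were tightly grouped (SD 0.018 in IL-6 livers and 0.079 in saline livers, n = 3 each). The log2 difference was 0.22 ± 0.07, with a 95% interval of 0.06 to 0.39 (limma adjusted p = 0.532).

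Stat5b had log2 values of 7.84, 7.71 and 7.93 in IL-6 livers, against 7.60, 7.47 and 7.63 in saline livers. Its groups did not overlap either, with saline replicate 2 the lowest of all. The log2 difference was 0.26 ± 0.09, with a 95% interval of 0.07 to 0.45 (limma adjusted p = 0.531).

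The paralogues resemble each other near 1 annotated start of each, in a stretch around the longest run shared by any pair of their windows. In Stat5b this run lies in the window chr11:100822521-100822820, and not in that at chr11:100850532-100850831. Stretches of 56 bases around this run were identical at 85.7% of positions. These include the shared run of 16 bases, marked in capitals, by which the stretches were chosen.
Stat5a (chr11:100860432-100860487, plus strand): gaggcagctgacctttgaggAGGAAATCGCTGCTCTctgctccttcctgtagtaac
Stat5b (chr11:100822558-100822613, minus strand): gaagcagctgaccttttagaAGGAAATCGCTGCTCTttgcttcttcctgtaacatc
Probe sequences were not used here, and cross-hybridisation between the Stat5a and Stat5b probe sets was not tested, so their differences may not be separate measurements.

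Stat6 encodes the STAT protein activated by IL-4 and IL-13, known for alternative macrophage activation. Its log2 values were 7.87, 7.96 and 7.99 in IL-6 livers, against 7.88, 7.90 and 7.89 in saline livers. The groups overlapped, with IL-6 replicate 1 the lowest of the 6 arrays. The log2 difference was 0.05 ± 0.07, and its 95% interval ran from -0.11 to 0.21 (limma adjusted p = 0.962).

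Stat4 encodes the STAT protein activated by IL-12, known mainly from T and NK cells. Its log2 values were 3.48, 3.002 and 3.17 in IL-6 livers, against 3.15, 3.38 and 3.23 in saline livers. The groups overlapped fully, and the mean level lay at percentile 8.47 of all genes, a range in which signal and background were not separated here. The log2 difference was -0.04 ± 0.12, with a 95% interval of -0.31 to 0.24 (limma adjusted p = 0.980). Of 10 T and NK cell markers, 6 also lay below the 25th percentile of level, and 0 were called in limma (0 at an unadjusted p under 0.05). Calls were few over all genes too (0.386% higher and 0.0351% lower, with 3.78% and 2.83% at that unadjusted p).

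**Figure D2:**
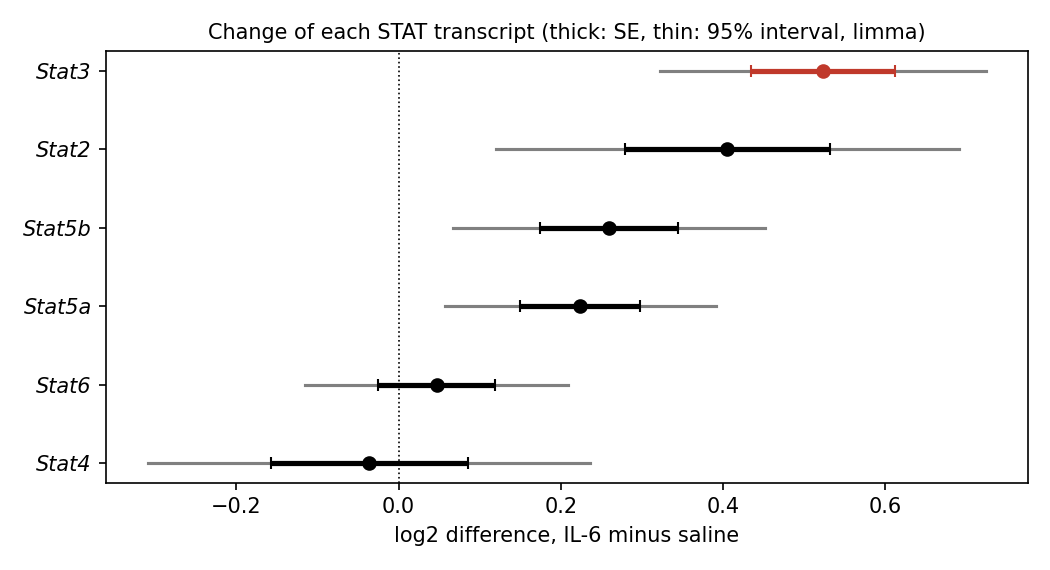
Log2 difference, IL-6 minus saline (x axis), of the 6 STAT transcripts (y axis), with the limma standard error as a thick bar and the 95% interval as a thin line, n = 3 arrays per group. Stat3, in red, is the member called at adjusted p under 0.05; the intervals of Stat2, Stat5b and Stat5a lie above 0, and those of Stat6 and Stat4 span 0.

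Ordered by size of difference the members ran Stat3, Stat2, Stat5b, Stat5a, Stat6 and Stat4. Whether Stat3 changed more than each other member was asked within arrays, from the gap between the Stat3 value and the other member's value, in 5 pairs. The difference of Stat3 exceeded that of Stat2 by 0.12 ± 0.09 (standard error over arrays), with overlapping groups (exact permutation p = 0.4, two-sided). It exceeded that of Stat5b by 0.26 ± 0.09, Stat5a by 0.30 ± 0.11, Stat6 by 0.48 ± 0.11 and Stat4 by 0.56 ± 0.07 on the log2 scale. In these 4 pairs the gaps did not overlap between groups, and each gave an exact permutation p of 0.1 (0.125 adjusted over 5 pairs), the smallest that 3 arrays against 3 allow. No pair could therefore reach 0.05.

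Over all genes, limma called 0.386% higher and 0.0351% lower, with 3.78% higher and 2.83% lower at an unadjusted p under 0.05. The marker lists are to be read beside these shares, and were drawn up with earlier results on these arrays known. Kupffer cell and macrophage markers had positive differences in 9 of 10, against 51.1% of all genes. In limma 0 of these markers were called (2 at an unadjusted p under 0.05). They averaged 6.42, 6.68 and 6.40 in IL-6 livers and 6.48, 6.42 and 6.30 in saline livers. Their highest array was IL-6 replicate 2, which was the lowest IL-6 array for Stat2, Stat3, Stat4 and Stat5b. Of 8 neutrophil markers 1 was called, S100a8 at a level below the 25th percentile, and that call was kept on leaving out only 1 of the 6 arrays (IL-6 replicate 3). The neutrophil list averaged 4.06 to 4.35 in IL-6 livers and 4.13 to 4.23 in saline livers. Cholangiocyte markers, 4 of 4 measured with positive differences and 0 called in limma (1 at an unadjusted p under 0.05), averaged 5.86 to 5.92 in IL-6 livers and 5.68 to 5.78 in saline livers, so these groups did not overlap. Among them Sox9 had 0.41 ± 0.11 (limma adjusted p = 0.326). Endothelial markers averaged 7.65 to 7.89 in IL-6 livers and 7.70 to 7.80 in saline livers. Stellate cell markers averaged 6.54 to 6.64 in IL-6 livers and 6.50 to 6.60 in saline livers, and B cell markers 4.09 to 4.14 in IL-6 livers and 4.09 to 4.17 in saline livers. Each of these 3 lists held 0 genes called in limma (0 at an unadjusted p under 0.05). The part of other cell types in the STAT values was not tested.

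Upstream of the STAT proteins, no listed transcript passed the test. Limma called 0.386% of all genes higher and 0.0351% lower, so 0 calls in lists of this size is the usual case. At an unadjusted p under 0.05 the shares were 3.78% higher and 2.83% lower. Of 7 measured IL-6 family receptor chains and JAK kinases, 0 passed in limma in either direction, 1 passed at an unadjusted p under 0.05, and the median log2 difference was 0.09. Il6st, which encodes gp130, had log2 values of 9.70, 9.58 and 9.75 in IL-6 livers, against 9.43, 9.40 and 9.33 in saline livers. Its groups did not overlap, but its difference of 0.29 ± 0.08 did not pass (limma adjusted p = 0.362). Il6ra, the ligand-binding receptor, had -0.20 ± 0.10, Tyk2 had 0.11 ± 0.08 and Osmr, the oncostatin M receptor, 0.18 ± 0.13, none of them called. Of 16 receptor chains of other STAT-activating cytokines, 0 passed (2 at an unadjusted limma p under 0.05) and the median was 0.06. Among them Ifnar2, of the type I interferon receptor, had 0.25 ± 0.08 and Lepr, the leptin receptor, -0.47 ± 0.17. Il13ra1 had 0.33 ± 0.16 and Il4ra, of the IL-4 receptor, 0.15 ± 0.08, also not called.

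Among inhibitors of STAT signalling, members of the SOCS family were called. Of 18 inhibitors 3 rose, 0 fell and 15 did not pass, beside 0.386% of all genes called higher and 0.0351% lower. The median was 0.06, and 4 had an unadjusted limma p under 0.05, beside 3.78% of all genes higher and 2.83% lower. Socs3, which binds gp130 and JAK and shuts off STAT3 signalling, had log2 values of 9.57, 9.45 and 9.63 in IL-6 livers, against 6.61, 6.42 and 6.18 in saline livers. The groups lay far apart, with a difference of 3.15 ± 0.11 (limma adjusted p = 1.45e-06), and its other probe set had 1.79 ± 0.21. Cish and Socs2, feedback inhibitors known as STAT5 targets, rose by 1.22 ± 0.16 and 0.86 ± 0.13. The other probe set of Socs2 had 1.41 ± 0.26 and was not called (limma adjusted p = 0.0840 over all probe sets with 1 symbol). The call of Cish was lost without saline replicate 1 or 3, and that of Socs2 was kept only on leaving out saline replicate 1 among single arrays. Ptpn2, a phosphatase that acts on STAT proteins in the nucleus, had 0.32 ± 0.09 (limma adjusted p = 0.409), and 0.50 ± 0.08 at its other probe set in the fit over all probe sets with 1 symbol (limma adjusted p = 0.0443).

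Of 17 partners and cofactors, 1 rose and 0 fell, beside 0.386% of all genes called higher. The median was 0.02, and 2 had an unadjusted limma p under 0.05, beside 3.78% of all genes higher and 2.83% lower. The riser was Jun, an AP-1 subunit that binds DNA beside STAT3, at 1.32 ± 0.13. Irf9, the DNA-binding partner of STAT2, had log2 values of 7.54, 7.34 and 7.40 in IL-6 livers, against 6.85, 7.09 and 6.97 in saline livers. Its groups did not overlap, and its difference of 0.46 ± 0.09 did not pass (limma adjusted p = 0.107). Ndufa13, a STAT3-binding mitochondrial protein, had -0.14 ± 0.07 and Smarca4, a chromatin remodeller, 0.13 ± 0.07.

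Downstream, 25 genes known as STAT3 targets were measured. Of these, 7 rose, 0 fell and 18 did not pass, beside 0.386% of all genes called higher and 0.0351% lower. Positive differences were found in 20, against 51.1% of all genes. The median was 0.30, and 17 had an unadjusted limma p under 0.05, beside 3.78% of all genes higher and 2.83% lower. The risers were Saa1, a serum amyloid A protein, at 3.84 ± 0.28, Socs3, the kinase gene Pim1 at 1.52 ± 0.08, Bcl3, an NF-kappaB cofactor, at 1.18 ± 0.08, and Irf1, Junb and the fibrinogen chain Fga. The last 3 were called beyond the 4 members chosen per list, and they had 1.07 ± 0.11, 1.07 ± 0.10 and 0.98 ± 0.12. The other probe set of Irf1 had 0.02 ± 0.09 and that of Fga 1.39 ± 0.16, so the Irf1 probe sets disagree. The Irf1 call was lost without saline replicate 2 and IL-6 replicate 3 together, as were those of Socs2 and Onecut1. In the fit over every probe set of the table, Jun, Junb, Fga, Irf1, Cish, Socs2, Onecut1 and S100a8 lost their calls, and Socs3, Saa1, Pim1, Bcl3 and Mx2 kept theirs. Pim1 had log2 values of 9.16, 9.12 and 9.28 in IL-6 livers, against 7.62, 7.64 and 7.75 in saline livers, groups that lie well apart. This list was drawn up with earlier results on these arrays known, so its count is no independent evidence of its direction.

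Of 18 measured genes known as targets of STAT2 and IRF9, 1 rose and 0 fell, beside 0.386% of all genes called higher. Positive differences were found in 17, against 51.1% of all genes. This list too was drawn up with earlier results on these arrays known, so that count is no independent evidence of its direction. The median was 0.11, and 5 had an unadjusted limma p under 0.05, beside 3.78% of all genes higher and 2.83% lower. The riser was Mx2, an interferon-induced GTPase, with log2 values of 6.67, 6.61 and 6.79 in IL-6 livers, against 4.91, 5.41 and 4.91 in saline livers. Its groups lay well apart, and its difference was 1.61 ± 0.13 (limma adjusted p = 0.000696). Eif2ak2 had 0.30 ± 0.08, Ifit3 0.34 ± 0.11 and Oas1a -0.42 ± 0.12, none of them called.

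The median over 11 genes known as growth hormone and STAT5 targets in liver was 0.29. Of these genes, 4 had an unadjusted limma p under 0.05, beside 3.78% of all genes higher and 2.83% lower. In limma 3 rose and 0 fell, beside 0.386% of all genes called higher. These were Cish and Socs2, which the list of inhibitors also holds, and Onecut1, a hepatocyte transcription factor, at 0.64 ± 0.10. Between 0 and 2 of the 3 kept their call when a single array was left out. Onecut1 kept it only without IL-6 replicate 2. Elovl3, a fatty acid elongase, had 0.29 ± 0.11 and was not called.

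Of 14 genes known as targets of IL-4, IL-13 and STAT6, 0 passed in limma (1 at an unadjusted p under 0.05), with a median of 0.02 and 7 of them below the 25th percentile of level. Of all genes, 0.386% were called higher and 0.0351% lower, with 3.78% higher and 2.83% lower at that unadjusted p. Gata3 had -0.31 ± 0.09, Retnla 0.25 ± 0.12, Fcer2a 0.26 ± 0.15 and Arg1, a urea cycle enzyme in hepatocytes, -0.13 ± 0.08. Of 9 genes known as targets of IL-12 and STAT4, 0 passed in limma (0 at an unadjusted p under 0.05), with a median of -0.01. Il18r1 had -0.19 ± 0.09, the cytotoxic granule genes Prf1 and Gzmb -0.11 ± 0.07 and -0.08 ± 0.11, and Il18rap 0.05 ± 0.07.

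**Figure D3:**
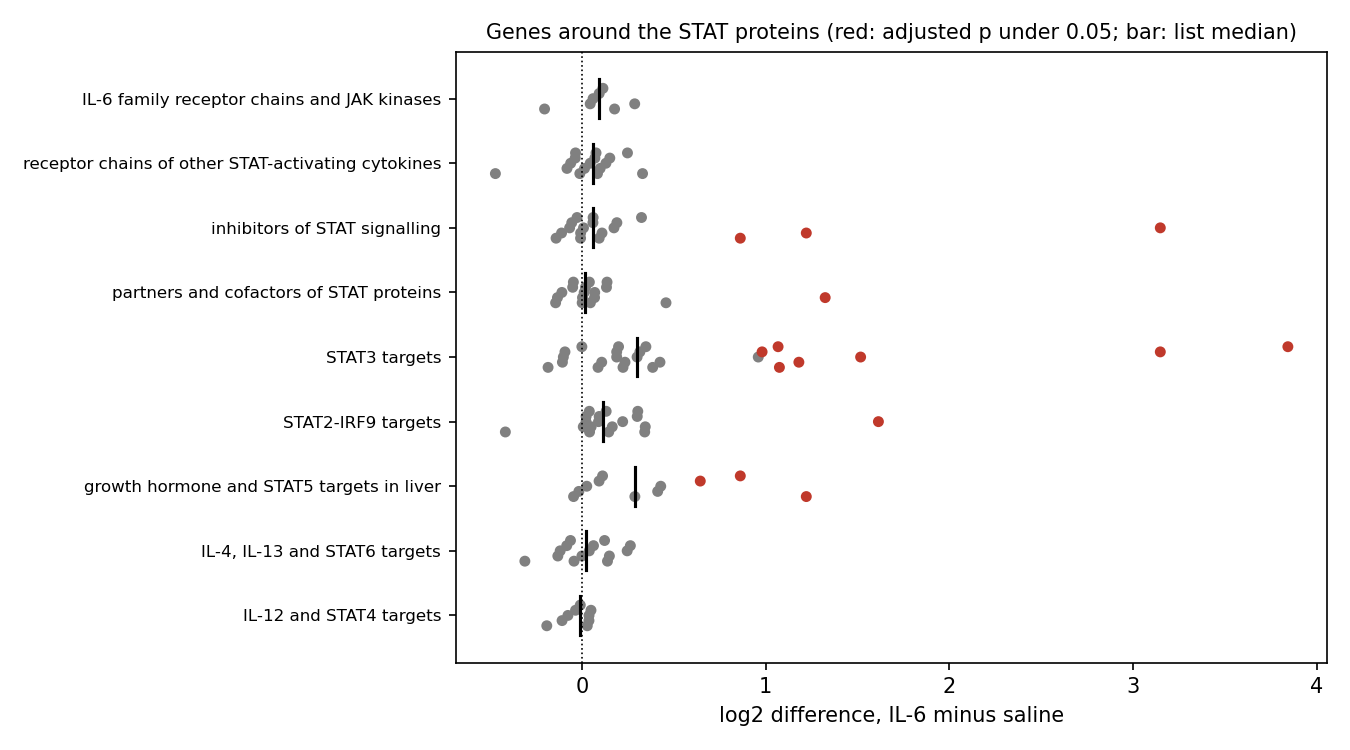
Log2 difference, IL-6 minus saline (x axis), of every measured gene (points) in 9 lists of genes around the STAT proteins (y axis), with a bar at the list's median; red points are called at limma adjusted p under 0.05. Called genes lie among the inhibitors, the partners and the targets of STAT3, STAT2-IRF9 and STAT5, and none among receptors and kinases or the targets of STAT6 and STAT4. For comparison, 0.386% of all genes were called higher and 0.0351% lower.

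The genes whose values over the 6 arrays were most like those of Stat3 were Maml1 (Pearson r = 0.993), Ikzf5 (0.989), Slc37a1 (0.987), Tmem125 (0.987) and Gpr146 (0.985). In all, 67 genes had r over 0.95 with Stat3. The counts were 33 for Stat2, 47 for Stat5a, 42 for Stat5b, 34 for Stat6 and 22 for Stat4. The IL-6 differences of Stat6 and Stat4 were smaller than their standard errors. A high r over 6 arrays can therefore arise without a shared IL-6 difference, and these values are given as a description. Of the 5, Gpr146, an orphan receptor gene, was called higher at 0.45 ± 0.08 (limma adjusted p = 0.0473), and Slc37a1, a sugar phosphate transporter, had 0.64 ± 0.11 (0.0526). For Stat2 the closest genes were Tns2 (0.984) and 2610507B11Rik (0.983), for Stat5a Car15 (0.993) and Tada1 (0.989), and for Stat5b Ebpl (0.994) and Dyrk3 (0.993). For Stat6 they were Pdlim5 (0.993) and Gna12 (0.992), and for Stat4 B3gntl1 (0.999) and Atp6v0d1 (0.984).

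**Figure D4:**
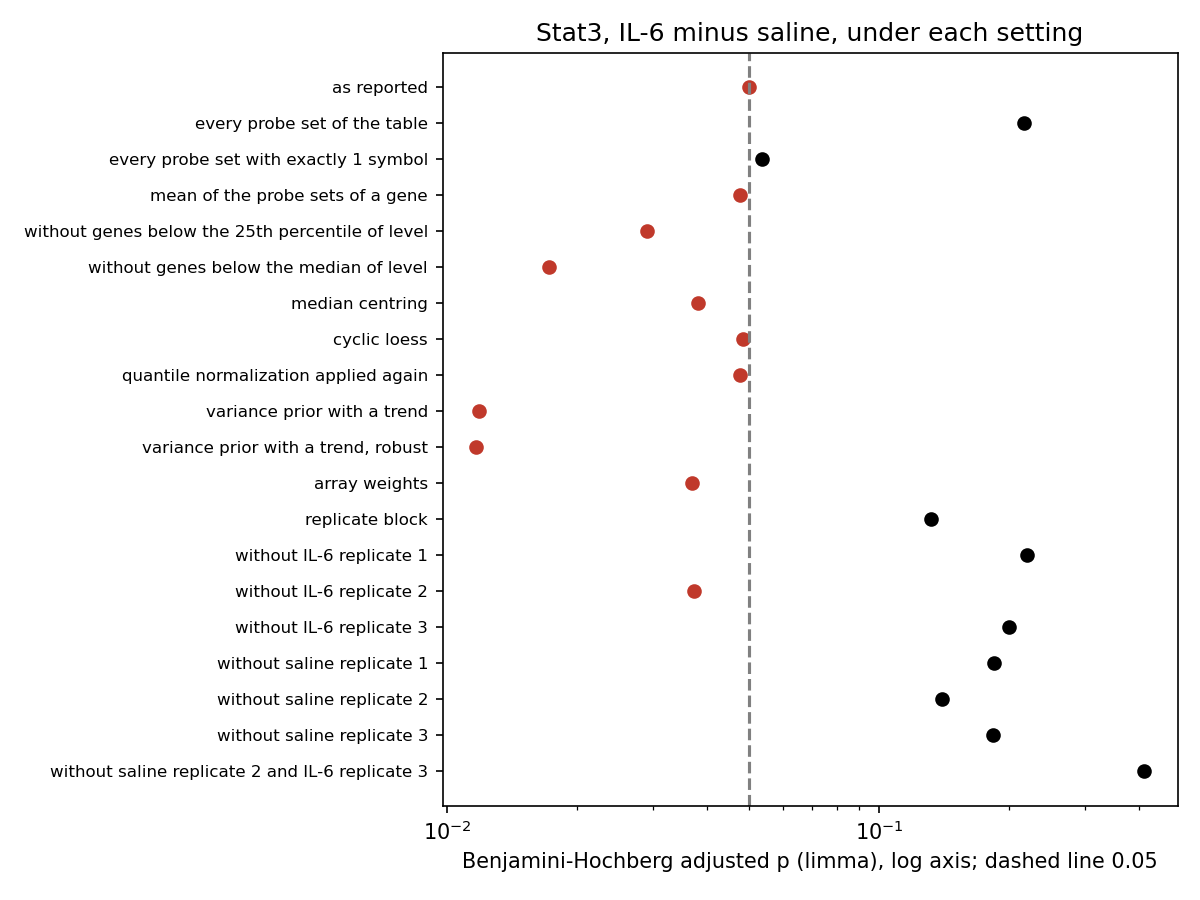
Benjamini-Hochberg adjusted p of Stat3 in limma (x axis, log scale) as reported and under each of 19 other settings (y axis), red where it lies under 0.05, the dashed line. The reported value of 0.04996 lies on the line, 10 other settings lie below it and 9 above it.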

How the data were processed

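The authors deposited log2 values made with RMA, as the submitters' processing notes name it (version and settings: not given in the sources used here). RMA adjusts background, equalises the arrays' probe distributions and combines a probe set's probes, steps that can shrink strong changes and hide a shift shared by most genes. No scanner intensities were used, so background was not assessed.

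The platform annotation gave exactly 1 symbol to 21789 of 35556 probe sets. For 999 genes with several probe sets the brightest was kept, leaving 19938 genes. The IL-6 and saline arrays were compared in limma 3.58.1 under R 4.3.3 (lmFit, eBayes), two-sided, with Benjamini-Hochberg adjustment over all genes and a threshold of 0.05. A simulation with independent errors drawn from limma's own variance prior checked only that the code recovers set differences. It does not test the spread between these arrays. The number of arrays limits the precision (median standard error 0.089). Intervals are limma's 95% intervals, unadjusted.

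The members, 9 gene lists, 8 marker lists and the rule for named genes (all members, up to 4 genes per list, the genes most correlated with each member) were chosen with earlier results of these data known. List genes without a probe set of 1 symbol were not analysed here. Replicate numbers were not used to pair the arrays in the main fit. Deviations from group means correlated at 0.076, -0.12 and -0.087 for numbers 1 to 3. The highest value was 0.18, for IL-6 replicate 3 with saline replicate 2. With 3 arrays per group, these values cannot settle whether the numbers pair the samples. Figures used matplotlib 3.10.9 in Python 3.11.15.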

Additional observations from a re-analysis of the deposited data

How the results depend on the processing

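Of 19 other settings, Stat3 kept its direction in 19 and its call in 10, with log2 differences of 0.45 to 0.60 and limma adjusted p of 0.0117 to 0.410. The settings that kept the call were averaging the probe sets of each gene, both filters on level, median centring, cyclic loess, repeated quantile normalization, both variance priors with a trend, array weights, and leaving out IL-6 replicate 2. The difference was 0.52 with the call lost when every probe set of the table was tested (limma adjusted p = 0.217), when every probe set with 1 symbol was tested (0.0535), and with the replicate number as a block (0.132). The count of STAT members called was then 0 in each of these fits. It was also 0 without saline replicate 2 and IL-6 replicate 3 together, where Stat3 had 0.53 (limma adjusted p = 0.410). Leaving out 1 array at a time gave 0 to 1 called members, and Stat3 differences of 0.45 to 0.60. The cause of the lost calls was not tested.

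Stat2, Stat5a, Stat5b and Stat6 kept a positive difference and stayed uncalled in all 19 settings. The Stat4 difference changed sign with array weights (0.0096), without saline replicate 2 and IL-6 replicate 3 together (0.049), and on leaving out IL-6 replicate 2 (0.071) or saline replicate 2 (0.026), with a range of -0.17 to 0.071 over single arrays left out. Both filters on level removed Stat4, so they give no value for it. Over all features, 77 higher and 7 lower calls became 16 and 1 with every probe set, and 31 and 2 without both of those arrays. There were 46 and 3 calls without IL-6 replicate 1, 46 higher without IL-6 replicate 3, 45 higher without saline replicate 3 and 4 lower without saline replicate 2. The block moved the higher calls to 59, and the numbers are not known to pair the samples.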

Other observations

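Stat5b, Stat5a and Stat3 follow one another as protein-coding genes on mouse chromosome 11 in RefSeq GRCm38.p6, and these 3 are the members whose IL-6 arrays all lay above the saline arrays. Their flanking genes were looked up after these values were seen. On the Stat5b side, Ghdc had a log2 difference of 0.15 ± 0.12, Hcrt 0.06 ± 0.08 and Kcnh4 -0.04 ± 0.07. On the Stat3 side, Cavin1, a caveolae coat protein gene, had 0.10 ± 0.07, Atp6v0a1 0.04 ± 0.07 and Naglu -0.03 ± 0.08. The IL-6 and saline arrays overlapped in all 6 of these neighbours, and none was called in limma. Most genes were alike in this. Of all genes, 6.15% had all IL-6 arrays above the saline arrays and 5.48% all below, and 0.386% were called higher and 0.0351% lower.

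Myc, a listed STAT3 target named after its values were seen, had log2 values of 6.52, 7.31 and 7.30 in IL-6 livers, against 6.18, 5.77 and 6.30 in saline livers. Its difference of 0.96 ± 0.21 did not pass (limma adjusted p = 0.180), beside 0.98 ± 0.12 for the called fibrinogen chain Fga.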
